A study of Mus musculus with 28 samples.

Results

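Mitochondrial ribosomal protein genes were described in DC2 cells, an immortalized line of mouse epithelial cells from the distal caput segment of the epididymis, the duct in which sperm mature. The members were taken by name. They are the genes of the normalized expression table whose symbols begin with Mrpl or Mrps followed by a digit, 78 of the 13128 genes with a symbol. Of these, 49 carry large subunit symbols (Mrpl) and 29 carry small subunit symbols (Mrps). All 78 passed the filter on low values, and their levels ran from 2.21 to 7.33 log2 CPM (the base 2 logarithm of a gene's reads scaled to a common library total).

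The 28 libraries fell into 7 groups of 4. Cells were collected at confluence on day 0, before any addition and so with neither ethanol nor hormone, although the labels list this group with the vehicle. From then on they received either 0.1% ethanol, the vehicle, or 500 ng/ml of corticosterone, the main glucocorticoid of the mouse, in the same 0.1% ethanol. Vehicle and corticosterone cultures were collected on day 3, at the end of the exposure. Further cultures were collected on day 6 and day 9, after the medium had been replaced and 3 or 6 days of recovery had passed. All groups came from this 1 cell line, grown on collagen with serum. Whether the 4 replicates of a group came from different cultures is not given in the labels, so p-values measure the spread between these libraries, which may be technical.

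Mitochondria carry their own ribosome, which translates the few messages of the mitochondrial genome, all of them for subunits of the respiratory chain and ATP synthase. Its RNA comes from mitochondrial DNA, whereas all of its proteins are encoded in the nucleus, made in the cytosol and imported. The small subunit holds the decoding centre, and the large subunit joins amino acids and hands the chain to the inner membrane. Many of the proteins have bacterial counterparts, and others are found in mitochondria only. Promoters of such genes are known to be bound by NRF1, by GABPA and other ETS factors, and by YY1.

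The promoters of 4 members are shown because these genes stand for different patterns and different promoter contents. Each window covers 250 bases before to 50 after the RefSeq start (GRCm38.p6), read in the direction of the gene. Capitals mark a match to the ETS core (CCGGAAG), the NRF1 core (GCATGCGC) or the YY1 core (AAGATGGCG) on either strand. Mrpl33 (5:31613701-31614000, plus strand) had the highest level per length. Mrpl42 (10:95501900-95502199, minus strand) was among the strongest rises with corticosterone. Mrps12 (7:28741772-28742071, minus strand) had negative hormone differences on all 3 days, none of which passed the test in the main fit. Mrpl16 (19:11770165-11770464, plus strand) rose late, and its window held none of these letters. The GENCODE M21 genes (GRCm38) lie at 5:31596935-31664384, 10:95480805-95501940, 7:28739641-28741820 and 19:11770391-11774960 in the same order, so the RefSeq start of Mrpl33 lies inside the longer GENCODE gene.
Mrpl33: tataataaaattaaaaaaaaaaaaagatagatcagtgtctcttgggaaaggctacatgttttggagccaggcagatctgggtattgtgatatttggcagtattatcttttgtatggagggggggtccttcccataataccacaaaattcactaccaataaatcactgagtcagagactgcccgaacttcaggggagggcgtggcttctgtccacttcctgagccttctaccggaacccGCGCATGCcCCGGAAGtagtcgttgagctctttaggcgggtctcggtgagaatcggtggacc
Mrpl42: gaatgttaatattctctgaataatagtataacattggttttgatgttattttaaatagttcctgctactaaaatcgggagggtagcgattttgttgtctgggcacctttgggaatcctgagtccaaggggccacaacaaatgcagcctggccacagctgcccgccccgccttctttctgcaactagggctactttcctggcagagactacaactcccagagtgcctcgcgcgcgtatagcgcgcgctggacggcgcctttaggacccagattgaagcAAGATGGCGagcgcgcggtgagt
Mrps12: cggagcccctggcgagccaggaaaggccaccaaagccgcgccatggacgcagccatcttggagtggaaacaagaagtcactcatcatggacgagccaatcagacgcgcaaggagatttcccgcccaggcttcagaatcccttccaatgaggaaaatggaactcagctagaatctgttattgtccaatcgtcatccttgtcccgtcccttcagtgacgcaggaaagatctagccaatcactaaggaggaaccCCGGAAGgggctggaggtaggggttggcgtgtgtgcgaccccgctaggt
Mrpl16: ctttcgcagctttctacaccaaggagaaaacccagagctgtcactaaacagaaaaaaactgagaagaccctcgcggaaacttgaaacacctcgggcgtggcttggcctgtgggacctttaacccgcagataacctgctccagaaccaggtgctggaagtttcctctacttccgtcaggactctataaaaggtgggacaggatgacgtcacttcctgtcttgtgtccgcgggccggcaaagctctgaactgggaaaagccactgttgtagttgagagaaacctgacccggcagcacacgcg

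RefSeq windows were matched for 69 of the 78 members. The ETS core was in 26 of them (37.7%), against 20.0% of the 10074 genes tested that had a window and 9.93% of all 27025 genes with one. The NRF1 core was in 8 (11.6%), against 5.92% and 3.05%. A longer form of it, GCGC and TGCGC separated by any base, which can overlap the shorter one, was in 13 (18.8%), against 11.5% and 5.19%. The YY1 core was in 8 (11.6%), against 3.54% and 1.64%. In all, 42 member windows (60.9%) held at least 1 of these, against 33.3% of the genes tested. The palindromic pair bound by the glucocorticoid receptor (AGAACA and TGTTCT separated by 3 bases) was in none of the 69 windows and in 1 of the 10074 genes tested. These shares describe letters in a window and say nothing of binding. A gene could have several windows, 1.09 on average for members and 1.28 for genes tested.

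The deposited values were normalized log2 CPM without counts, so the depth of the libraries is unknown, and no counting interval can be given. Corticosterone replicate 4 of day 3 stood apart. Its mean over the large subunit members was 5.43 log2 CPM, against 4.93 to 5.00 in the other libraries of its group. Its mean over the small subunit members was 5.26, against 4.75 to 4.80. It was the highest library of its group for 77 of the 78 members, Mrps5 being the exception, and its mean over 86 cytosolic ribosomal protein genes was also the highest of the group, at 8.31. Day 3 hormone counts and differences are therefore given with and without it. Summed levels of 6 keratin and epithelial adhesion markers were 49.3 to 50.8 CPM on day 0. In vehicle they were 31.26 to 34.88 on day 3, 37.72 to 39.79 on day 6 and 44.06 to 49.65 on day 9, and with corticosterone 25.21 to 34.21, 25.56 to 27.06 and 41.84 to 52.44. The sum of the epididymal genes Cftr, Pax2, Pax8 and Spink8 was 246.7 to 258.8 CPM on day 0. In vehicle it was 211.5 to 227.2, 212 to 234.1 and 173.2 to 201.1 on days 3, 6 and 9. With corticosterone it was 187.8 to 232.8, 252.2 to 262.4 and 226.2 to 246.7, so the sum lay higher without overlap on days 6 and 9. Its genes did not move as 1 on day 3 without replicate 4. There Spink8 (log2 fold change of 4.88) and Pax2 (0.14) were called higher, Pax8 was called lower (-0.15), and Cftr was not called (-0.04). The luminal secretory markers Lcn5, Lcn8, Crisp1, Gpx5, Cst8 and Adam7 were not analysed here. Summed over 4 fibroblast genes (Col1a1, Col1a2, Pdgfra, Pdgfrb), levels were 28.2 to 30.05 CPM on day 0. They were 47.05 to 51.36, 49.84 to 53.2 and 54.94 to 73.29 in vehicle on days 3, 6 and 9, and 30.96 to 33.96, 20.87 to 21.55 and 47.99 to 50.21 with corticosterone. Levels of 3 macrophage-associated genes (Cd68, Csf1r, Cd14) summed to 34.3 to 35.9 CPM on day 0. They were 68.64 to 74.44, 92.6 to 103.7 and 133.3 to 149.3 in vehicle on days 3, 6 and 9, and with corticosterone 34.56 to 49.21, 36.21 to 45.41 and 91.6 to 95.4. The endothelial genes Pecam1 and Kdr summed to 7.146 to 9.711 CPM with corticosterone on day 3 and to 1.428 to 2.6 in vehicle. Acta2 of smooth muscle and Ddx4 of germ cells stayed at or below 3.639 CPM in every library. Some of these sums join genes that went different ways on day 3 without replicate 4. Kdr was higher with corticosterone (log2 fold change of 5.39), and Pecam1 was not called (-0.02). Pdgfra was higher (1.59), and Col1a1, Col1a2 and Pdgfrb were lower (-1.34, -1.14 and -0.60). Krt7 was higher (1.21), Cdh1 and Krt18 were lower (-1.14 and -0.39), and Krt8, Krt19 and Epcam were not called. The part of these lists in the results was not tested, and Ptprc, Adgre1 and Lyz2 were not analysed here. In such whole-culture libraries, fewer cells of a type and less RNA per cell cannot be told apart.

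**Figure D1:**
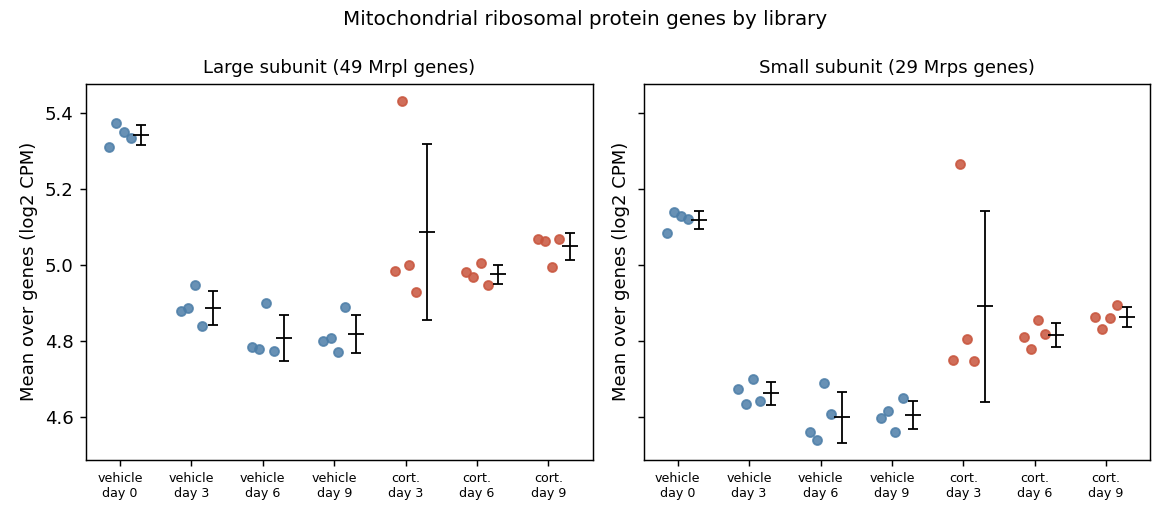
Mean level of the 49 large and the 29 small subunit genes in each library (vertical axis, log2 CPM) by group (horizontal axis), with the group mean and SD as bars. Corticosterone replicate 4 of day 3 is the highest point of both panels, at 5.43 and 5.26, apart from the other 3 libraries of its group, and the day 0 libraries lie above all the rest.

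The first question was how the members changed as confluent cultures were kept in vehicle. They fell, together and early. By day 3, 61 of the 78 had fallen below day 0 (78.2%) by limma at a Benjamini-Hochberg adjusted p under 0.05, against 32.7% of all genes tested, and 1 had risen (1.28%), against 36.5%. On day 6, 69 had fallen (88.5%, against 33.7% of all genes) and none had risen, against 36.4%. On day 9, 67 had fallen (85.9%, against 34.6%) and again none had risen, against 35.9%. At an unadjusted limma p under 0.05 no member was higher on day 6 or on day 9 either. The share of all genes at that threshold is not given. The median log2 fold change of the members was -0.46 on day 3, -0.56 on day 6 and -0.55 on day 9, and that of all genes tested was 0.04, 0.03 and 0.02. These 3 comparisons share the day 0 libraries. Altogether 61 members (78.2%) were called lower on all 3 days, against 26.9% of all genes. The 4 vehicle libraries lay below the 4 day 0 libraries for 65 members on day 3, 70 on day 6 and 68 on day 9, against 32.1%, 32.9% and 33% of all genes.

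Among small subunit members the deepest fall was that of Mrps28, whose level was 4.16, 4.30, 4.38 and 4.43 log2 CPM in the day 0 libraries. In vehicle it was 3.15, 2.93, 3.27 and 3.04 on day 3, 3.23, 3.09, 3.41 and 3.34 on day 6, and 3.19, 3.25, 3.15 and 3.26 on day 9. No vehicle library after day 0 reached the lowest day 0 value. The log2 fold change was -1.22 ± 0.10 (SE) on day 3, with a limma adjusted p of 4.7e-11, and -1.05 and -1.11 on the later days. Mrps22, another small subunit protein, went from 4.55, 4.42, 4.50 and 4.58 on day 0 to 3.54, 3.38, 3.43 and 3.49 on day 3. That difference was -1.06 ± 0.08 (SE) at a limma adjusted p of 1.7e-11, again with no overlap, and it was -0.91 on day 9.

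Mrps27, a small subunit protein of the RNA-binding pentatricopeptide type, had fallen by 0.97 on the log2 scale on day 9. Of the large subunit, Mrpl33 had day 0 levels of 7.22, 7.31, 7.33 and 7.18 log2 CPM and day 6 vehicle levels of 6.24, 6.21, 6.35 and 6.19. These did not overlap, and the difference of -1.01 ± 0.12 (SE) had a limma adjusted p of 2.0e-08. On day 9 it was -0.93, where replicate 6, at 6.61, was the highest of 4 vehicle libraries that otherwise lay between 6.19 and 6.26. Mrpl9 fell by 0.95 by day 9 and Mrpl19 by 0.94 by day 3, both large subunit proteins with bacterial counterparts. Mrpl54, which is found in mitochondria only, fell by 0.92 by day 3 and stood 0.52 below day 0 on day 9.

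In all, 8 members were not called lower on any of the 3 days, namely Mrpl23, Mrpl24, Mrpl27, Mrpl34, Mrpl49, Mrps6, Mrps12 and Mrps21 (named after their values were seen). Mrpl34 was the only member called higher than on day 0, and that on day 3 only. Its level was 3.05, 3.37, 3.52 and 3.49 log2 CPM on day 0 and 3.64, 3.59, 3.87 and 3.52 in vehicle on day 3. The groups overlapped slightly, since vehicle replicate 6 did not exceed day 0 replicate 5. The log2 difference was 0.30 ± 0.12 (SE) at a limma adjusted p of 0.035, and on day 9 it was -0.04. Without day 0 replicate 3 or 4, or without vehicle replicate 3 or 5, the count of members called higher was 0. For Mrps6 all 4 vehicle libraries lay above the 4 of day 0 on days 6 and 9, without a call. Its range was 6.15 to 6.20 log2 CPM on day 0, 6.28 to 6.43 on day 6 and 6.22 to 6.39 on day 9.

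**Figure D2:**
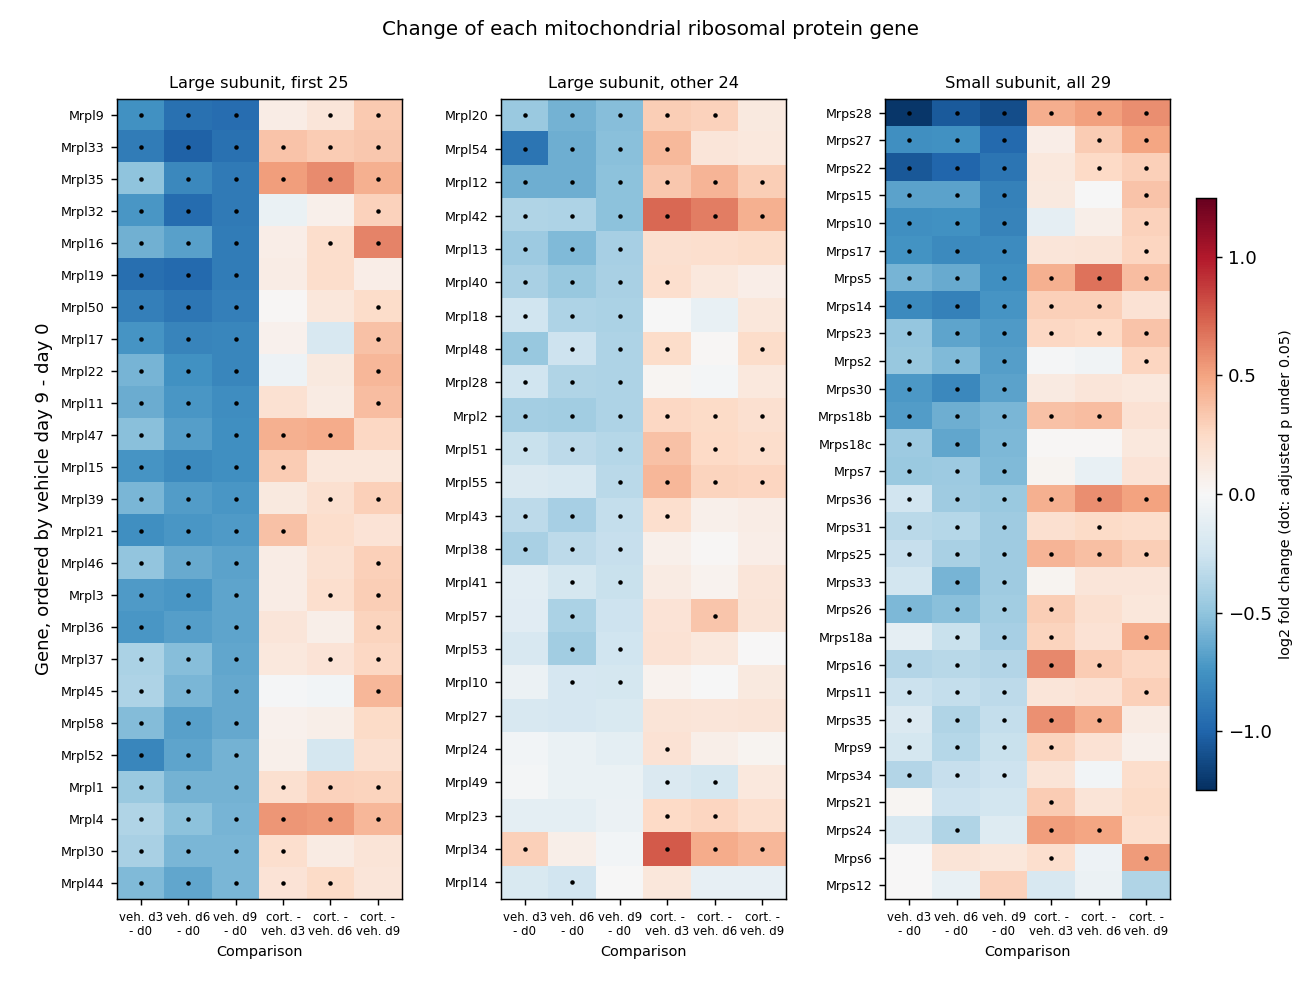
Log2 fold change of every member (rows, ordered within each subunit by the vehicle change on day 9) in 6 comparisons (columns), coloured from blue (lower) to red (higher), with a dot where the limma adjusted p was under 0.05. The first 3 columns are blue in nearly all rows, with Mrps28 deepest at -1.22, and the last 3 are mostly red, with Mrpl34 strongest at 0.76.

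The second question was how the members differed between corticosterone and vehicle of the same day. On day 3, after 3 days of hormone, 37 members were higher with corticosterone (47.4%), against 23.3% of all genes tested, and 1 was lower (1.28%), against 25.6%. The median log2 fold change was 0.18 over the members and -0.01 over all genes. Without corticosterone replicate 4, 25 members were higher (32.1%), against 23.3% of all genes in that fit, and 4 were lower (5.13%), against 26.8%. Without that library the median over the members was 0.07 and that of all genes -0.01. All 25 had also been called with it. With only the 8 day 3 libraries in the fit, whose spread is then not shared with the other groups, 14 members were higher (17.9%), against 17.7% of all genes. The 4 corticosterone libraries lay above the 4 vehicle libraries for 24 members and below for none, against 18.8% of all genes above. The 3 without replicate 4 lay above for 24 and below for 3, against 23.9% of all genes above. The share of all genes below was not counted in any hormone comparison, so counts of members below have no background here.

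Mrpl42, a large subunit protein found in mitochondria only, rose on day 3 whichever libraries were used. Its levels were 5.27, 5.26, 5.36 and 5.32 log2 CPM in vehicle and 5.89, 6.44, 5.86 and 5.89 with corticosterone, the 6.44 being replicate 4. The difference was 0.72 ± 0.08 (SE) at a limma adjusted p of 5.6e-08, and without replicate 4 it was 0.58 at a limma adjusted p of 2.3e-10. No corticosterone library overlapped the vehicle libraries.

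Mrpl34 had the largest day 3 difference, 0.76 ± 0.12 (SE) at a limma adjusted p of 1.1e-05, and 0.69 without replicate 4. Its corticosterone libraries were at 4.37, 4.63, 4.29 and 4.38 log2 CPM, all above the vehicle libraries given above. It thus rose on day 3 in vehicle and stood higher again with the hormone, which no other member did.

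Other large subunit members that rose on day 3 were Mrpl4 (0.55, then 0.44 without replicate 4), which lines the exit tunnel, Mrpl35 (0.52, then 0.48) and Mrpl47 (0.45, then 0.32), a protein at the tunnel's mouth. In the small subunit the largest rises were those of Mrps16 (0.60, then 0.40), Mrps35 (0.57, then 0.47), Mrps24 (0.53, then 0.43), Mrps5 (0.45, then 0.47) and Mrps28 (0.45, then 0.32). All 8 were also called without replicate 4. For Mrps16, the replicate 4 library was at 4.98 log2 CPM, whereas its 3 companions were at 4.13 to 4.23 and the vehicle libraries at 3.77, 3.81, 3.80 and 3.76. Mrps5, which sits by the entry of the messenger RNA, was at 5.80, 5.51, 5.72 and 5.66 in vehicle and at 6.04, 6.06, 6.22 and 6.16 with corticosterone. Among the members closest to no change on day 3 were Mrpl18 (-0.00), Mrpl45 (-0.01), Mrps2 (-0.01) and Mrps18c (0.02). Without replicate 4 the first 3 were at -0.11, -0.10 and -0.07, none called, and Mrps18c turned to -0.19 at a limma adjusted p of 0.033.

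**Figure D3:**
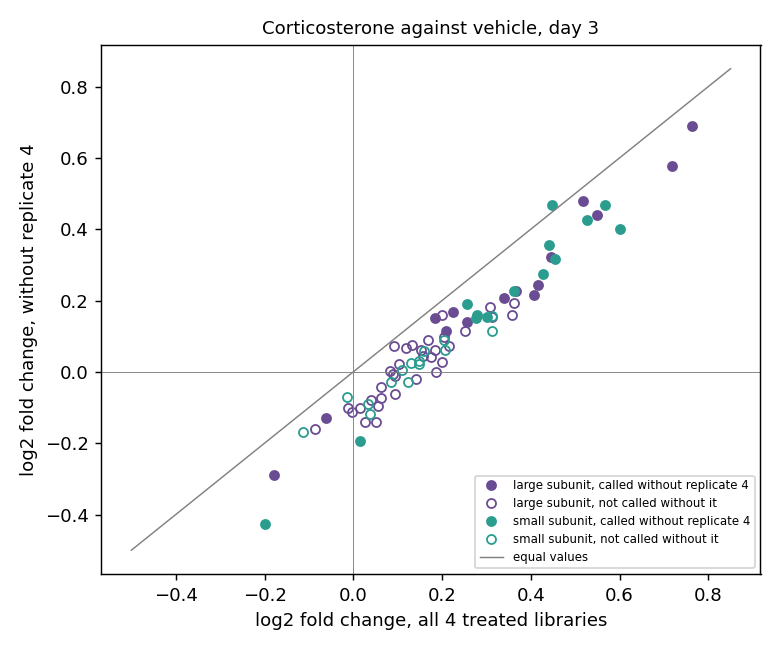
Log2 fold change of each member on day 3, corticosterone against vehicle, with all 4 corticosterone libraries (horizontal axis) and without replicate 4 (vertical axis), with large subunit genes in purple, small subunit genes in teal, and filled points for those called without it. All points but that of Mrps5 lie below the line of equal values, and the median moves from 0.18 to 0.07.

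On day 6, 3 days after the hormone was removed, 33 members were higher (42.3%), against 22.9% of all genes, and 1 was lower (1.28%), against 24.3%. The median was 0.18 over the members and -0.00 over all genes. The 4 corticosterone libraries lay above the 4 vehicle libraries for 40 members, against 23.8% of all genes, and below for 1. The SD of the mean over all members was 0.02 (n = 4) with corticosterone and 0.06 (n = 4) in vehicle. Vehicle replicate 5 was the highest library of its group for 55 members, with a large subunit mean of 4.90 against 4.77 to 4.79 in the other 3. Without it 34 members were higher.

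Mrps5 had the largest day 6 difference, 0.68 ± 0.07 (SE) at a limma adjusted p of 2.4e-08, from 5.54, 5.54, 5.60 and 5.81 log2 CPM in vehicle to 6.27, 6.2996, 6.47 and 6.15. Mrpl42 stood at 5.24, 5.27, 5.40 and 5.27 in vehicle and at 6.00, 5.94, 5.94 and 5.85 with corticosterone, a difference of 0.64 ± 0.08 (SE) at a limma adjusted p of 3.8e-07. Neither gene's groups overlapped. Mrpl35 (0.59), Mrpl4 (0.53), Mrps28 (0.52), Mrps24 (0.49), Mrpl34 (0.47), Mrpl47 (0.46) and Mrps35 (0.46) followed. Mrps36 also rose, by 0.58, although its protein is known as a subunit of the oxoglutarate dehydrogenase complex and not of the ribosome. Mrpl10 (-0.00), Mrpl48 (0.01), Mrps15 (-0.01) and Mrps18c (0.01) were closest to no change. Mrps18a and Mrps9 differed by 0.18 each and did not pass the test. With the replicate number as a fixed block they differed by 0.22 and 0.21, at limma adjusted p-values of 0.034 and 0.039.

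On day 9, after 6 days of recovery, 38 members were higher (48.7%), against 14.1% of all genes, and none was lower, against 14.4%. At an unadjusted limma p under 0.05, 45 were higher and 1 lower, and 76 of the 78 differences were positive. No share of all genes is given for these counts, so they cannot be set against the whole table. The median was 0.23 over the members and 0.00 over all genes. The corticosterone libraries lay above the vehicle libraries for 45 members, against 16.6% of all genes, and below for 1, Mrps12.

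Mrpl16, a large subunit protein near the sites that hold transfer RNA, had the largest day 9 difference. Its levels were 4.76, 4.76, 4.75 and 4.60 log2 CPM in vehicle and 5.40, 5.37, 5.27 and 5.30 with corticosterone, without overlap. The difference was 0.62 ± 0.06 (SE) at a limma adjusted p of 8.1e-09. It had been 0.22 on day 6 and 0.08 on day 3, or 0.00 without replicate 4, neither of the day 3 values being called, and the vehicle level had gone down from 5.64, 5.63, 5.59 and 5.52 on day 0.

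Mrps6 rose late too, from 6.31, 6.39, 6.36 and 6.22 log2 CPM in vehicle to 6.85, 6.85, 6.80 and 6.92 with corticosterone, a difference of 0.54 ± 0.08 (SE) at a limma adjusted p of 1.8e-05. On day 6 the 2 groups overlapped, at 6.28 to 6.43 and 6.24 to 6.31. On day 3 the difference of 0.21 passed the test at a limma adjusted p of 0.039 through replicate 4, at 6.83, and was 0.06 and not called without it. Leaving out any 1 of the 4 vehicle libraries also ended that call, with limma adjusted p-values of 0.058 to 0.076. The gene overlaps Slc5a3 on the same strand, with starts 52 bases apart, so its level is uncertain in so far as reads were divided between them. Slc5a3 differed by 0.03 on day 9 and did not pass the test.

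Mrps28 rose by 0.58, to 3.77, 3.78, 3.76 and 3.86, which was still below every day 0 library. Mrps36 (0.50), Mrps27 (0.50) and Mrps18a (0.47) were next in the small subunit. In the large subunit Mrpl35 (0.45), Mrpl42 (0.45), Mrpl4 (0.42) and Mrpl45 (0.41), a protein that holds the ribosome at the inner membrane, followed Mrpl16. Closest to no change were Mrpl53 (0.01) and Mrpl24 (0.03) in the large subunit and Mrps9 (0.06) and Mrps35 (0.10) in the small subunit.

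**Figure D4:**
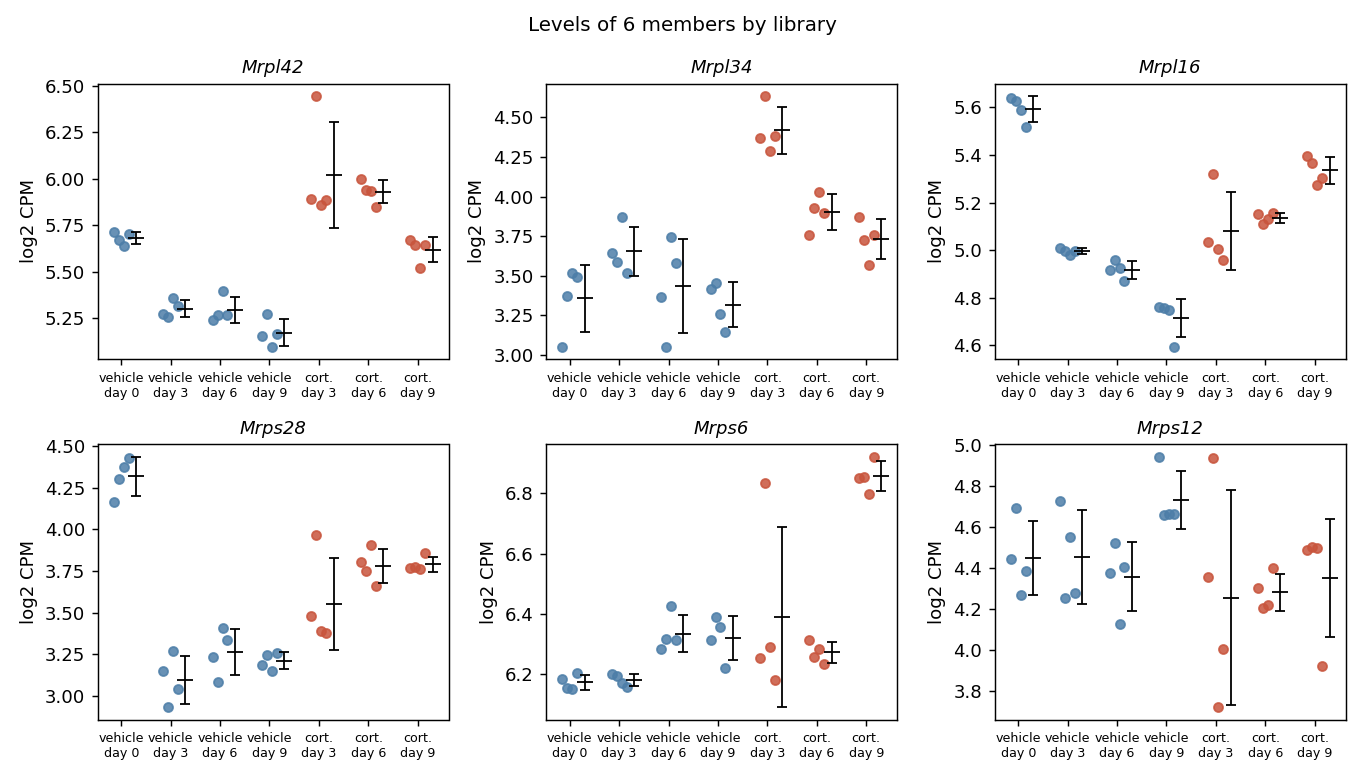
Level of 6 members (vertical axes, log2 CPM, each with its own range) in every library by group, with vehicle in blue, corticosterone in red, and the group mean and SD as bars. Mrpl42 and Mrpl34 are highest with corticosterone on day 3, Mrpl16 and Mrps6 stand above vehicle by 0.62 and 0.54 on day 9, Mrps28 is highest on day 0, and Mrps12 is widely spread.

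Whether the hormone effect changed between days was tested directly, as the difference of 2 differences. From day 3 to day 6 no member's effect differed by limma, against 4.21% of all genes higher and 4.9% lower. At an unadjusted limma p under 0.05, 2 were higher and 2 lower, without a share of all genes beside them. Without replicate 4 of day 3, 3 members were higher (3.85%), against 5.52% of all genes in that fit, and none lower, against 5.51%. The members' median moved from -0.02 to 0.10, where that of all genes was 0.01. From day 6 to day 9 the effect shifted upward for 9 members (11.5%), against 16% of all genes, and downward for 2 (2.56%), against 14.9%. Both shares of the members were below those of all genes.

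The largest increase from day 6 to day 9 was that of Mrps6, 0.60 ± 0.12 (SE) at a limma adjusted p of 0.00026. Mrpl17, a large subunit protein with a bacterial counterpart, was next at 0.56. With corticosterone it was at 4.69, 4.70, 4.48 and 4.77 log2 CPM on day 6 and at 5.22, 5.23, 5.26 and 5.20 on day 9, whereas vehicle was at 4.82, 4.85, 5.02 and 4.74 and then at 4.97, 4.93, 4.69 and 4.87. Mrpl45 increased by 0.45 at a limma adjusted p of 0.00026, from 5.22, 5.14, 5.15 and 5.09 with corticosterone on day 6 to 5.58, 5.51, 5.50 and 5.53 on day 9, with vehicle at 5.10 to 5.29 and then 5.10 to 5.15.

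Both decreases were in the small subunit. The effect on Mrps35, which is found in mitochondria only, changed by -0.36 at a limma adjusted p of 0.015, from 0.46 on day 6 to 0.10 on day 9. That on Mrps5 changed by -0.29 at a limma adjusted p of 0.039, from 0.68 to 0.39. With the replicate number as a block, 1 decrease was called in place of 2, and leaving out a single library of day 6 or 9 gave 1 in 9 of 16 cases.

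Across the 3 days, 15 members (19.2%) were called higher with corticosterone on every day, 19 (24.4%) on 2 days, 25 (32.1%) on 1 day and 19 on none. Of all genes tested 5.41%, 13.2% and 17.7% were called on 3, 2 and 1 of the days and 63.7% on none. The 15 were Mrpl1, Mrpl2, Mrpl4, Mrpl12, Mrpl33, Mrpl34, Mrpl35, Mrpl42, Mrpl51, Mrpl55, Mrps5, Mrps23, Mrps25, Mrps28 and Mrps36. Without replicate 4 of day 3, 13 members (16.7%) and 5.41% of all genes were called on every day, and Mrpl1 and Mrpl33 were the ones no longer called on that day. The calls of Mrpl33 were near the threshold, since 3 of the 8 single libraries of day 6 and 6 of the 8 of day 9 ended them when left out, and that of Mrpl34 on day 9 had a limma adjusted p of 0.0502 without vehicle replicate 6. Another 13 were called on day 9 only, 10 on day 3 only and 2 on day 6 only. Of those 10, only Mrpl24, Mrpl43, Mrpl54 and Mrps9 were still called on day 3 without replicate 4. The share of all genes called on 1 day is not split by day here. Only Mrpl27, Mrpl49 and Mrps12 were neither higher with corticosterone on any day nor lower in vehicle on any day.

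Mrpl49, a large subunit protein found in mitochondria only, was the one member called lower with corticosterone when all libraries were used in the main fit. Without replicate 4 of day 3 the members called lower on that day were Mrpl49, Mrps12 (-0.43), Mrps18c (-0.19) and Mrpl22 (-0.13 at a limma adjusted p of 0.047). On day 3 its levels were 6.41, 6.47, 6.48 and 6.33 log2 CPM in vehicle and 6.19, 6.58, 6.14 and 6.08 with corticosterone, where replicate 4 was the highest of all 8. The difference was -0.18 ± 0.07 (SE) at a limma adjusted p of 0.049, and -0.29 at a limma adjusted p of 8.1e-05 without replicate 4. The day 3 call also stood without vehicle replicate 6, and it was lost on leaving out any 1 of the other 6 libraries, with limma adjusted p-values of 0.073 to 0.19. On day 6 it was -0.22, from 6.35, 6.43, 6.4046 and 6.29 to 6.23, 6.17, 6.11 and 6.09, with no overlap and a limma adjusted p of 0.017, which became 0.0501 without corticosterone replicate 6. On day 9 it was 0.13 and did not pass the test. The change of its effect from day 6 to day 9 was 0.35 at a limma adjusted p of 0.013. The gene starts 59 bases from Fau, which runs on the opposite strand and encodes a fusion that includes a cytosolic ribosomal protein. Fau fell in vehicle (-0.67 on day 3), and Mrpl49 did not pass the test there (-0.02).

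Mrps12, a protein of the decoding centre, varied widely between replicates. In vehicle it was at 4.73, 4.25, 4.55 and 4.28 log2 CPM on day 3 and at 4.94, 4.66, 4.66 and 4.66 on day 9. With corticosterone it was at 4.36, 4.94, 3.72 and 4.00 on day 3 and at 4.49, 4.51, 4.50 and 3.92 on day 9. The differences were -0.20, -0.08 and -0.38 on the 3 days with SEs of 0.18, and none passed the test, although on day 9 all 4 corticosterone libraries lay below all 4 of vehicle. Without replicate 4 the day 3 difference was -0.43 at a limma adjusted p of 0.020. The day 9 difference was called with only the groups compared in the fit (limma adjusted p of 0.049). It was also called with weights per library (-0.43, limma adjusted p of 0.011) and with the length trend removed (-0.46, limma adjusted p of 0.026). Its start lies 172 bases from that of Sars2, the mitochondrial seryl-tRNA synthetase on the opposite strand, so the printed window reaches into that gene. Sars2 fell in vehicle by 0.31 on day 3 and 0.39 on day 9, while Mrps12 differed by 0.00 and 0.28, neither of which passed the test.

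Large and small subunit genes were also described apart. On day 0 the mean over the large subunit genes was 5.34 ± 0.03 log2 CPM (SD, n = 4) and that over the small subunit genes 5.12 ± 0.02. In vehicle they were 4.89 ± 0.04 and 4.66 ± 0.03 on day 3, 4.81 ± 0.06 and 4.60 ± 0.07 on day 6, and 4.82 ± 0.05 and 4.61 ± 0.04 on day 9. With corticosterone they were 5.09 ± 0.23 and 4.89 ± 0.25 on day 3, 4.98 ± 0.02 and 4.82 ± 0.03 on day 6, and 5.05 ± 0.04 and 4.86 ± 0.03 on day 9. Apart from replicate 4 of day 3, which lay above the day 0 libraries, every later library lay below them in both means. The large minus small difference within a library was 0.22 ± 0.01 on day 0, 0.21 to 0.22 on average in the vehicle groups, and 0.20 ± 0.03, 0.16 ± 0.03 and 0.19 ± 0.04 with corticosterone on days 3, 6 and 9. The day 3 means with corticosterone but without replicate 4 were 4.97 ± 0.04 and 4.77 ± 0.03 (SD, n = 3). These are descriptions, with no test.

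In vehicle on day 3, 38 of 49 large and 23 of 29 small subunit genes had fallen, against 32.7% of all genes, with medians of -0.46 and -0.45. By day 9 the counts were 42 and 25, against 34.6% of all genes, with medians of -0.57 and -0.46. With corticosterone, 22 large and 15 small subunit genes were higher on day 3, 20 and 13 on day 6, and 24 and 14 on day 9. The shares of all genes higher on these days were 23.3%, 22.9% and 14.1%. The large subunit medians were 0.17, 0.15 and 0.23 and the small subunit medians 0.21, 0.18 and 0.26. Without replicate 4 the day 3 counts were 13 higher (26.5%) and 2 lower in the large and 12 higher (41.4%) and 2 lower in the small subunit, against 23.3% and 26.8% of all genes, with medians of 0.07 and 0.09. No test of the difference between subunits was made.

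Some symbols do not match the place of the protein. Mrps18a and Mrps30 are known to sit in the large subunit, and Mrps36 in another complex. With the first 2 moved and the last left out, 23 of 51 large and 13 of 26 small subunit genes were higher on day 3, 20 and 12 on day 6, and 25 and 12 on day 9. Of all genes 23.3%, 22.9% and 14.1% were higher on these days. The day 3 counts without replicate 4 were 14 and 10 higher and 2 and 2 lower, against 23.3% and 26.8% of all genes. The 3 copies of the bacterial S18 protein differed in their calls. Mrps18a rose on days 3 and 9 (0.28 and 0.47), Mrps18b on days 3 and 6 (0.36 and 0.38), and Mrps18c differed by 0.02, 0.01 and 0.13 and passed the test on no day. On day 3, Mrps18a and Mrps18b differed by 0.16 and 0.23 without replicate 4, both still called, and that of Mrps18c was the negative one given above. The day 3 call of Mrps18a was lost with the length trend removed (0.11, limma adjusted p of 0.17), and with only the groups compared in the fit those of Mrps18a and Mrps18b were lost (limma adjusted p of 0.094 and 0.051). Their differences from each other were not tested.

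Of 48 members with a bacterial counterpart, 25 were higher with corticosterone on day 3 (52.1%), 20 on day 6 (41.7%) and 25 on day 9 (52.1%). Of 29 found in mitochondria only, 11 (37.9%), 12 (41.4%) and 12 (41.4%) were higher, and Mrpl49 was lower on days 3 and 6. The shares of all genes higher were 23.3%, 22.9% and 14.1%. Without replicate 4 of day 3, 16 of the 48 (33.3%) were higher and 3 lower, and 8 of the 29 (27.6%) were higher and 1 lower, against 23.3% and 26.8% of all genes. In vehicle 36, 40 and 39 of the first kind and 24, 28 and 27 of the second had fallen on the 3 days, against 32.7%, 33.7% and 34.6% of all genes. The difference between the 2 kinds was not tested.

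Some members are known for particular tasks. Mrpl12, a stalk protein that recruits translation factors and also binds the mitochondrial RNA polymerase, fell in vehicle by 0.61 on day 3. With corticosterone it rose by 0.34, 0.43 and 0.30 on days 3, 6 and 9, all called, and day 3 was 0.21 and still called without replicate 4. The day 9 call of Mrpl12 was lost without vehicle replicate 3 or 5 (0.27 in both cases). Mrpl11 at the base of the stalk rose on day 9 (0.38) and differed by 0.19 and 0.10 before that, neither called, and without replicate 4 its day 3 difference was 0.00. Mrpl10, which carries the Mrpl12 copies, passed the test on no day of hormone comparison and lay 0.22 below day 0 in vehicle on day 9.

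Mrpl58, a release factor built into the large subunit that frees stalled ribosomes, fell in vehicle by 0.54 to 0.68 and differed with corticosterone by 0.06 (-0.10 without replicate 4), 0.08 and 0.23, none called. Mrpl44, which has the fold of an RNA-cutting enzyme, rose by 0.17 on day 3 and 0.24 on day 6, and differed by 0.09 without replicate 4 on day 3, where it was not called, nor was it without vehicle replicate 4 or 6. Mrpl3, close to the catalytic centre, rose by 0.21 on day 6 and 0.31 on day 9. Mrps22 rose by 0.25 and 0.30 on those days, the first of which was not called without corticosterone replicate 5. Mrps34 fell in vehicle by 0.26 to 0.37 and passed no hormone comparison, its largest difference being 0.22 on day 9.

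Per length of transcript, on a scale of log2 CPM per kilobase, day 0 levels were highest for Mrpl33 (8.32), Mrpl20 (6.93) and Mrps17 (6.88) and lowest for Mrpl57 (1.50). Mrps6 (6.42) and Mrpl42 (6.28) had ranks 5 and 8 of 78, and Mrpl34 (4.08) had rank 62. The lengths are medians over annotated transcripts, so a long minor transcript lowers a gene's value.

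Another 5 proteins of the mitochondrial ribosome carry other symbols. Dap3, a nucleotide-binding protein of the small subunit, rose by 0.28 on day 3, or 0.17 and still called without replicate 4, and differed by 0.03 and 0.04 later. Ptcd3, which sits where messenger RNA enters, rose by 0.26 on day 3 (0.22 and called without replicate 4), and Chchd1 by 0.39, which was not called without replicate 4 or 5 of corticosterone or without vehicle replicate 6. Aurkaip1 rose on all 3 days (0.22, 0.22 and 0.23), although on day 3 it was 0.13 and not called without replicate 4. Its day 6 call was lost without vehicle replicate 4 (0.16), and its day 9 call without any 1 of 5 libraries, vehicle replicates 3 and 4 and corticosterone replicates 3, 5 and 6. Gadd45gip1, a large subunit protein near the exit tunnel, passed no hormone comparison (0.10, -0.10 and 0.22, with -0.00 on day 3 without replicate 4). All 5 fell in vehicle on days 3 and 6, and on day 9 all but Dap3 (-0.13) did. Ptcd3 fell most, by 0.75 on day 3.

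Genes for other steps of mitochondrial gene expression were taken as lists. Their hormone counts on days 3, 6 and 9 stand beside 23.3%, 22.9% and 14.1% of all genes higher and 25.6%, 24.3% and 14.4% lower, and their vehicle counts beside 32.7%, 33.7% and 34.6% lower and 36.5%, 36.4% and 35.9% higher. Of 26 assembly and RNA modification factors, 15 fell and 5 rose on day 3, with a median of -0.23. Noa1, a GTP-binding factor, fell by 1.09 on day 3, while Mrm1, a methyltransferase of the large ribosomal RNA, stood 0.81 above day 0 on day 9. With corticosterone 13, 12 and 6 of the 26 were higher on days 3, 6 and 9 (50%, 46.2% and 23.1%), and 1, 0 and 1 lower. The day 3 count without replicate 4 was 10 higher (38.5%) and 1 lower. Mrm1 rose by 0.77 on day 3 (0.70 without replicate 4) and was lower by 0.25 on day 9. Rbfa, which matures the small subunit's RNA, rose by 0.41 on day 3 (0.31 without).

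Of 15 translation factors, 8 fell on each vehicle day, and 2, 1 and 1 rose. Gfm1, the elongation factor that moves the ribosome along, fell by 0.93 by day 9, and Metap1d, which trims the first residue, rose by 0.43. With corticosterone 11, 7 and 6 were higher on the 3 days (73.3%, 46.7% and 40%) and none was lower. Gfm1 rose by 0.45 on day 3 (0.47 without replicate 4) and 0.52 on day 9, Metap1d by 0.47 on day 3 (0.41 without), and Oxa1l, which inserts new chains in the membrane, by 0.48 on day 9. Without replicate 4 the day 3 count was 9 higher (60%) and 1 lower.

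Of 20 genes for charging mitochondrial transfer RNA, 11, 14 and 15 fell on the 3 vehicle days and 1 rose on each, with Ears2 at -1.49 and Mars2 at -1.37 on day 3. With corticosterone 7, 8 and 8 were higher (35%, 40% and 40%) and none lower, and without replicate 4 the day 3 count was 5 (25%). Cars2 rose by 0.60 and Gatb by 0.55 on day 3, and by 0.57 and 0.47 without replicate 4. Of 22 genes for mitochondrial transcription and RNA processing, 14, 16 and 16 fell in vehicle and 3, 3 and 2 rose, with Tbrg4 falling by 1.06 on day 3. With corticosterone 13, 11 and 7 were higher (59.1%, 50% and 31.8%) and 2, 0 and 1 lower, and without replicate 4 the day 3 counts were 10 (45.5%) and 2. Pnpt1, an RNA-degrading enzyme, rose by 1.05 and Fastkd1 by 0.51 on day 3, and by 1.05 and 0.52 without replicate 4, and Lrpprc, which stabilizes mitochondrial messages, by 0.34 on day 9.

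The messages that the mitochondrial ribosome translates went the other way in vehicle. Of 11 mitochondrially encoded messages, 9 had risen on day 3, 9 on day 6 and 10 on day 9, with medians of 0.61, 0.72 and 0.84, and 1, 0 and 1 had fallen. mt-Co1, a core subunit of cytochrome oxidase, rose by 0.66 on day 3 and 0.84 on day 9. With corticosterone 10, 10 and 4 of them were higher, with medians of 0.43, 0.65 and 0.16, and mt-Co1 rose by 0.56 and mt-Co2 by 0.65 on day 3. Leaving out replicate 4, the day 3 count was again 10, with a median of 0.39, and the 2 genes rose by 0.58 and 0.52. From day 6 to day 9 the hormone effect decreased for 8 of the 11, with a median of -0.48, whereas the members' median change was 0.02. The libraries were made from polyadenylated RNA, so a change in the tails of these messages and a change in their number cannot be told apart. The share of all CPM held by these messages was 3.28 ± 0.05% (SD, n = 4) on day 0, 5.83 ± 0.20% in vehicle on day 9 and 8.61 ± 0.41% with corticosterone on day 6. The members held 0.329 ± 0.005%, 0.243 ± 0.010% and 0.266 ± 0.005% in the same groups.

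The proteins of the ribosome outside the mitochondrion are encoded by a separate set of genes. In vehicle 84 of 86 fell on each day, with medians of -0.97, -1.05 and -0.90, where the members had -0.46, -0.56 and -0.55. Rplp0 fell by 1.12 on day 3. With corticosterone 24, 6 and 10 were higher on days 3, 6 and 9 and 2, 0 and 0 lower, with medians of 0.17, 0.08 and 0.14. Without replicate 4 the day 3 count was 7 higher and 13 lower, with a median of -0.00, against 25 and 4 of the 78 members. On day 6, 6.98% of the cytosolic list and 42.3% of the members were higher, against 22.9% of all genes. The difference between the lists was not tested.

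**Figure D5:**
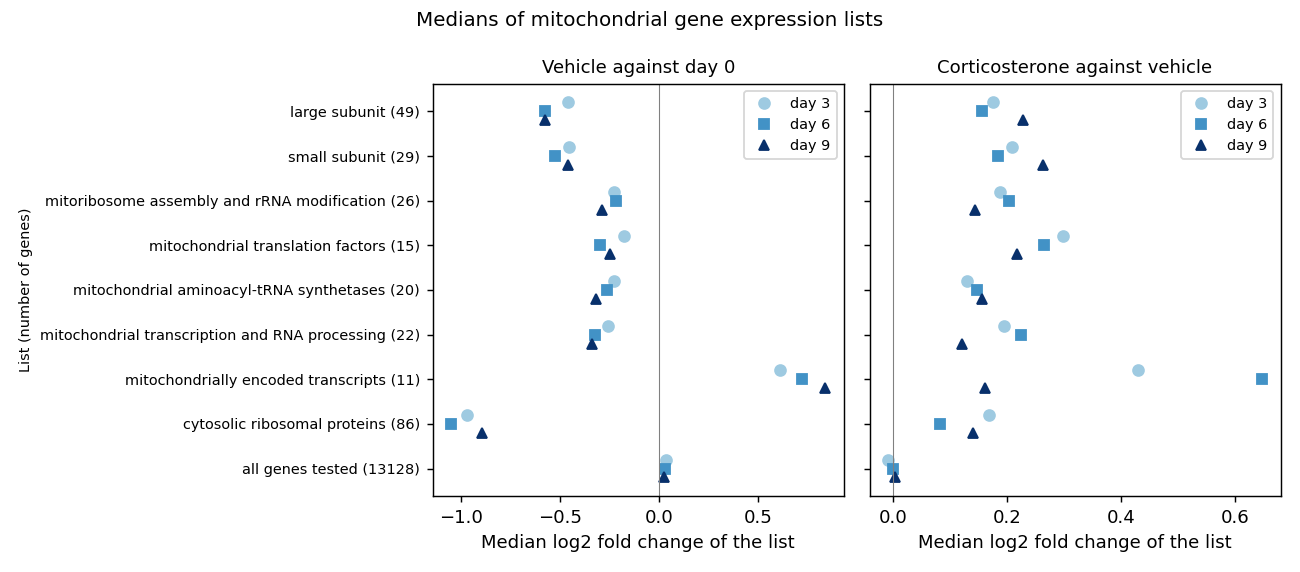
Median log2 fold change (horizontal axis) of each list (rows, with its number of genes) in vehicle against day 0 (left) and corticosterone against vehicle (right) on days 3, 6 and 9. Both subunits lie near -0.5 in the left panel and near 0.2 in the right one, cytosolic ribosomal proteins lie near -1 on the left, and mitochondrially encoded transcripts lie right of zero in both.

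Members are short genes, with a median transcript of 1224.5 bases against 2712.5 over genes with an annotated length. The 8097 other genes between 642.9 and 3428.2 bases, which are the outer deciles of the members, had medians of 0.02, -0.00 and 0.02 in the 3 hormone comparisons and 0.02, -0.01 and -0.00 in the 3 vehicle comparisons. With a trend on transcript length taken out, the day 3 count was 27 higher and 5 lower, so that 84.4% of the calls were higher in place of 97.4%. Over all genes, 47.5% of the day 3 calls were then higher. Without replicate 4 as well, the day 3 count was 22 higher and 8 lower, against 23.5% and 27.4% of all genes. The members' median was 0.02 in that setting. With the trend taken out and all libraries kept, the day 6 and day 9 counts were 34 and 37 higher and 4 and 2 lower. Of those calls 89.5% and 94.9% were higher, against 48.9% and 48.5% over all genes. In replicate 4 of day 3 the mean over 999 other transcripts under 1000 bases was 4.12 log2 CPM, the highest of its group, whose lowest was 3.83. Its part in the day 3 results was not tested.

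The members lie on 17 chromosomes, with the most, 11, on chromosome 11. A gene that starts within 1000 bases on the opposite strand was found for 33. Mrpl46 and Mrps11 are such neighbours of each other, and they overlap, with starts 412 bases apart. Of the 33 neighbours, 15 fell and 8 rose in vehicle on day 3, against 32.7% and 36.5% of all genes, with a median of -0.20. With corticosterone on day 3, 8 of the 33 were higher and 7 lower, against 23.3% and 25.6% of all genes. Without replicate 4 the counts were 8 and 6, against 23.3% and 26.8%. On day 9 of the hormone comparison 7 neighbours were higher and 3 lower, against 14.1% and 14.4% of all genes. The neighbours' median was then 0.08, and the members' median was 0.23. Leaving aside overlaps with those 33 neighbours, 13 of the 78 members overlap a gene in the table. Of these, 5 are also among the 33 members with such a neighbour. Some reads of overlapping members, Mrpl46 and Mrps11 included, could have been assigned to either gene. The sources used here do not say how strand was handled. Mrpl33 overlaps Rbks on the opposite strand, which rose by 1.11 on day 3 with corticosterone (1.01 without replicate 4) and fell by 1.37 in vehicle.

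Medians by promoter content were as follows. Members with the ETS core had a median of 0.18 on day 3 and 0.23 on day 9 with corticosterone, and those without it 0.17 and 0.27. Members with the NRF1 core, 8 in number and among them Mrpl33 printed above, had 0.07 on day 3 and 0.32 on day 9, and those without it 0.19 and 0.23. In vehicle on day 9 they had -0.82, and those without it -0.51. Members with the YY1 core, such as Mrpl42 and Mrpl35, had 0.22, 0.25 and 0.37 on days 3, 6 and 9, and those without it 0.17, 0.15 and 0.23. The day 3 medians without replicate 4 were 0.07 with and 0.07 without the ETS core, -0.04 and 0.07 for the NRF1 core, and 0.12 and 0.06 for the YY1 core. These are descriptions and were not tested.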

How the data were processed

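The 28 RNA-seq libraries of DC2 cells were prepared with a stranded mRNA kit, per the labels' protocols. The table deposited by the authors holds normalized log2 CPM. The submitters' processing notes name kallisto, edgeR 3.40.1, limma 3.54.0 and mm10. The annotation, prior count, scaling and use of strand are not given in the sources used here. CPM summed to 949069 to 1059650 per library. One entry without a symbol held 0.0267% to 0.0698% of CPM and was left out.

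The 13128 genes were fitted with limma 3.58.1 in R 4.3.3, with 1 mean for each of 7 groups, an intensity trend and 21 residual degrees of freedom. The filter asked for more than 0 log2 CPM in 4 or more libraries, and every gene met it. Calls had a Benjamini-Hochberg adjusted p under 0.05 over all genes, within each of 8 contrasts. The procedure was tested on simulated data.

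Named genes were, for each hormone contrast, the 5 largest called changes and the 2 smallest in each subunit with a mean of at least 1 log2 CPM, and every call against the majority. For each vehicle contrast they were the 2 largest rises and falls of each subunit, and for each change of effect the 3 largest either way. Mrpl3, Mrpl11, Mrpl12, Mrpl44, Mrpl58, Mrps12, Mrps18a, Mrps18b, Mrps18c, Mrps22, Mrps34, Mrps36 and the proteins with other symbols were named whatever their values, as were the 2 smallest p-values of each further list. Other names were chosen after their values were seen. Members and lists were chosen with earlier results of these data known.

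Replicate numbers come from the labels, which do not say what a number marks. Deviations of same-numbered libraries correlated at 0.16, 0.13 and 0.11 between corticosterone and vehicle on day 6, over 0.1 for every pair, and below 0.1 for at least 1 pair in every other comparison. Differently numbered libraries of day 6 correlated at -0.25 to 0.23, so these values cannot show a pairing. Results with the replicate number as a block are given as alternatives only. Alternatives were other filters, scalings, added constants, moderation, library weights, blocks, a threshold of 0.01, a length trend, the subunits by structure and leaving out each library. The subunits by structure, the split by bacterial counterpart and the neighbouring genes were chosen after seeing the data. Transcript lengths and positions are from GENCODE M21 and promoters from RefSeq (GRCm38.p6), with 69 of 78 members matched. A sum over the full list of epididymal markers is not reported here, and the sum over 4 of them was chosen after seeing the data, as was leaving out corticosterone replicate 4 of day 3 together with the length trend.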

Additional observations from a re-analysis of the deposited data

Results flagged for a closer look

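In 38 of 336 group values, 1 of the 4 libraries lay farther from the others than Dixon's 95% critical value for 4 samples allows, where chance gives about 5%. All values are log2 CPM, each with the range of the other 3 libraries. For replicate 4 of day 0 these were Mrpl49 at 6.58 (others 6.39 to 6.42) and Mrps18a at 5.20 (others 4.99 to 5.02). Replicate 5 of day 0 had Mrpl19 at 5.24 (others 5.54 to 5.59). Replicate 4 of vehicle on day 3 had Mrps35 at 4.85 (others 4.98 to 4.99). Replicate 5 of vehicle on day 3 had Mrps15 at 4.68 (others 4.56 to 4.58). Replicate 3 of vehicle on day 6 had Ptcd3 at 5.98 (others 5.77 to 5.79). Replicate 5 of vehicle on day 6 had the large subunit mean at 4.90 (others 4.77 to 4.79). Replicate 6 of vehicle on day 6 had Mrps18a at 4.71 (others 4.79 to 4.81). Replicate 3 of vehicle on day 9 had Mrps12 at 4.94 (others all at 4.66). Replicate 4 of vehicle on day 9 had Mrpl48 at 4.69 (others 4.59 to 4.60). For replicate 5 of vehicle on day 9 these were Mrpl10 at 5.88 (others 5.92 to 5.93) and Mrpl35 at 4.30 (others 4.54 to 4.56). For replicate 6 of vehicle on day 9 these were Mrpl12 at 6.26 (others 5.87 to 5.91), Mrpl16 at 4.60 (others 4.75 to 4.76), Mrpl3 at 5.45 (others 5.20 to 5.24) and Mrpl33 at 6.61 (others 6.19 to 6.26). Also for replicate 6 of vehicle on day 9 these were Mrps18b at 4.58 (others 4.91 to 4.94) and Mrps18c at 5.31 (others 4.87 to 4.93). For replicate 4 of corticosterone on day 3 these were the large subunit mean at 5.43 (others 4.93 to 5.00), the small subunit mean at 5.26 (others 4.75 to 4.80), Dap3 at 6.90 (others 6.44 to 6.47) and Mrpl11 at 5.58 (others 4.78 to 4.89). Also for replicate 4 of corticosterone on day 3 these were Mrpl17 at 5.57 (others 4.75 to 4.84), Mrpl33 at 7.33 (others 6.49 to 6.63), Mrpl4 at 5.60 (others 5.15 to 5.17) and Mrpl42 at 6.44 (others 5.86 to 5.89). Also for replicate 4 of corticosterone on day 3 these were Mrpl9 at 6.2993 (others 5.90 to 5.93), Mrps15 at 5.17 (others 4.55 to 4.60), Mrps16 at 4.98 (others 4.13 to 4.23) and Mrps18b at 5.49 (others 4.91 to 5.01). Also for replicate 4 of corticosterone on day 3 these were Mrps6 at 6.83 (others 6.18 to 6.29) and Mrps9 at 5.77 (others 5.22 to 5.30). Replicate 6 of corticosterone on day 6 had Mrps36 at 4.22 (others 4.13 to 4.14). Replicate 3 of corticosterone on day 9 had Chchd1 at 3.13 (others 3.38 to 3.41). Replicate 4 of corticosterone on day 9 had Mrpl35 at 5.01 (others 4.91 to 4.92). Replicate 5 of corticosterone on day 9 had the large subunit mean at 5.00 (others 5.06 to 5.07). For replicate 6 of corticosterone on day 9 these were Mrps12 at 3.92 (others 4.49 to 4.51) and Mrps28 at 3.86 (others 3.76 to 3.78).

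The corticosterone effect differed between day 6 and day 9 for 9 named members, by the limma test of the difference itself. It shifted upward for Mrps6 (0.60), Mrpl17 (0.56), Mrpl45 (0.45), Mrpl16 (0.40), Mrps15 (0.37), Mrpl49 (0.35) and Mrps2 (0.32), and downward for Mrps35 (-0.36) and Mrps5 (-0.29).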

How the results depend on the processing

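Counts are of members out of 78. Unless given above, the shares of all genes in these settings are not reported. A larger or smaller count alone thus says nothing particular to the members. With only the groups compared in the fit, 14 rather than 37 were higher on day 3 with corticosterone and 0 lower, 1 was lower on day 9, 1 and 2 were higher in vehicle on days 6 and 9, and 14 effects shifted upward from day 6 to day 9. At an adjusted p under 0.01 the counts higher were 24 on day 3 and 23 on day 9, those lower were 0 on days 3 and 6, vehicle on day 3 had 0 higher, and the effect from day 6 to day 9 had 4 upward and 0 downward. Median centring left 0 lower on day 3 and 1 higher in vehicle on day 6. Quantile normalization left 0 lower on day 3, 2 lower on day 6, 0 higher in vehicle on day 3 and 1 on day 6, with a small subunit median of -0.52 in vehicle on day 9. Without the intensity trend 0 were lower on day 3.

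With weights per library, 3 were lower on day 3 and 3 on day 6, 64 were higher and 1 lower on day 9, and 1 and 2 were higher in vehicle on days 6 and 9, where the small subunit median was -0.49. From day 3 to day 6, 5 effects then shifted upward, with medians of 0.092 (large) and 0.15 (small). From day 6 to day 9, 15 shifted upward and 4 downward. With the length trend removed, 5, 4 and 2 were lower with corticosterone on days 3, 6 and 9, 3, 3 and 4 were higher in vehicle, and 1 effect shifted upward from day 3 to day 6. The large subunit medians were then 0.18 on day 9 and -0.40, -0.44 and -0.40 in vehicle, and the small subunit medians 0.19 on day 9 and -0.41 and -0.45 in vehicle on days 3 and 6. With log2(CPM + 5) the small subunit median was 0.20 on day 9. The vehicle medians were -0.40, -0.51 and -0.48 (large) and -0.40, -0.47 and -0.40 (small). With log2(CPM + 1) the large subunit median in vehicle on day 9 was -0.53. With subunits taken by structure, the small subunit median there was -0.50. The cause was not tested in any of these cases.

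With the replicate number as a fixed replicate block, 36 rather than 33 members were higher on day 6. From day 6 to day 9 the block left 1 downward shift rather than 2, with a small subunit median of 0.0028. Among the named results, the block changed the call of Mrps18a and Mrps9 on day 6 (0.22 and 0.21). The sign of Mrps18c on day 3 turned to -0.18 with weights, -0.19 with the length trend removed and -0.19 without corticosterone replicate 4, the lowest of a left-out range that reached 0.13.

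Leaving out 1 library at a time gave 25 to 41 members higher and 0 to 4 lower on day 3, 25 to 34 and 0 to 2 on day 6, and 28 to 36 and 0 on day 9. In vehicle on day 3 it gave 0 to 1 higher. Small subunit medians ran from 0.16 to 0.24 on day 6, from 0.23 to 0.27 on day 9, and in vehicle from -0.47 to -0.42, from -0.56 to -0.47 and from -0.50 to -0.44. From day 3 to day 6 it gave 0 to 3 upward and 0 to 1 downward shifts, with medians from -0.095 to 0.098 (large) and from -0.063 to 0.13 (small). From day 6 to day 9 it gave 1 to 2 downward shifts and a large subunit median from -0.0027 to 0.082. The lowest day 3 counts and the highest medians of the change from day 3 to day 6 were those without corticosterone replicate 4. Depth is unknown, so low values cannot be weighed by counts.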
